A study of Homo sapiens with 6 samples.

Results

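Levels of integrin alpha subunit RNA were compared between p16-transfected and mock-transfected Capan-1, a long-established line from a human carcinoma of the pancreas. The members were 10 genes, ITGA1, ITGA2, ITGA3, ITGA4, ITGA5, ITGA6, ITGA7, ITGA10, ITGAV and ITGAE, and every probe set of the array annotated to exactly 1 of them was taken, which gave 18 of 54675 probe sets. To be tested, a probe set had to reach a log2 level of 4 in 3 or more of the 6 samples, in either group. Of the 18, 9 probe sets from 7 genes passed, and the 9 that did not pass include all those of ITGA1, ITGA4 and ITGA10. The compared groups were 3 samples of Capan-1 cells transfected with a full-length p16INK4a cDNA under the CMV promoter in the vector pRC/CMV, and 3 samples of mock-transfected Capan-1 cells. Both groups carry the name Capan-1 in the labels, which was not checked by any typing of the cells here. Each group holds the numbers V1, V2 and V3. Per the labels, the medium was RPMI with 15% fetal calf serum, and transfected cells were kept under hygromycin (0.1 mg/ml) and G418 (1 mg/ml). The labels do not say what the mock vector carried, whether a sample was 1 clone or a pool, or whether the 3 samples of each kind were grown as cultures of their own. The p-values therefore cover the spread among these arrays alone, and that spread may be technical.

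Integrins are heterodimers of an alpha and a beta subunit that span the cell membrane and tie the matrix outside the cell to the actin cytoskeleton or to keratin filaments inside it. The alpha subunit largely sets which ligand is bound. The alpha1, alpha2 and alpha10 subunits form collagen receptors and alpha3, alpha6 and alpha7 laminin receptors, alpha5 and alphaV recognise the RGD motif of fibronectin and vitronectin, and alpha4 and alphaE are best known on leukocytes. Carcinoma cells of the pancreatic duct are known to use alpha2beta1, alpha3beta1, alpha6beta4 and alphaV integrins to adhere to basement membrane and stroma.

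RNA was hybridised to Affymetrix arrays, 1 per sample, and all levels below are log2 values normalized by the authors. The number of arrays limits the precision. CDKN2A, the gene of p16, read 12.12, 13.01 and 12.67 in p16 samples V1 to V3 and 5.61, 6.43 and 6.01 in mock samples on its brightest probe set (limma adjusted p = 5.4e-05), which does not tell the cDNA from the cells' own gene. MTAP, a neighbour of CDKN2A that the cDNA does not carry and that was chosen here after its values were seen, was at least 133-fold higher in p16 samples and lay under 4 in every mock sample. Correlations between samples across the probe sets tested were 0.927 to 0.991 within groups and 0.716 to 0.781 between groups. Whether the cells of both groups are of the same line or of the same 9p21 genotype was not tested, so an effect of p16 and such a difference between the cells cannot be told apart in any p16 minus mock value below. Of 8 duct epithelium markers, 6 were lower in p16 samples (SOX9, MUC1, KRT19, KRT8, CDH1 and KRT18), none was higher, and their summed linear level was 51548 to 62340 in p16 samples and 154590 to 177878 in mock samples. KRT7 (a log2 difference of -0.10) and EPCAM (-1.02, adjusted p = 0.0718) were not called. With samples blocked by V number EPCAM was called lower (adjusted p = 0.00176; -1.05, -0.95 and -1.06 by V number).

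Among the alpha subunits, ITGA6 and ITGA2 fell most in p16 samples, ITGAV fell by less, ITGAE was slightly higher, and ITGA3, ITGA5 and ITGA7 were not called. In RNA of whole cultures, fewer cells that express a gene and less RNA per cell cannot be told apart. By brightest tested probe set, 3 of 7 genes were lower and 1 was higher (limma, adjusted p under 0.05 over all 24406 probe sets tested). By probe set, 5 of 9 were lower and 1 was higher. Over the whole array 22.5% of genes were called lower and 19.5% higher, 42% in all, and by probe set 19.7% were called lower and 17.5% higher, 37.2% in all. The median log2 difference of the 9 probe sets was -0.83, against -0.0011 over all those tested. ITGA2 and ITGA6 enter that median with 2 probe sets each. By gene the median was smaller, -0.34, against -0.032 over all genes tested. The groups did not overlap in 6 of the 9 probe sets and 4 of the 7 genes, where 51.8% of all tested probe sets and 56.4% of genes did not overlap. The call counts depend on single samples: without mock V1, mock V3 or p16 V3, 3 probe sets were called, and without mock V1, mock V3, p16 V2 or p16 V3, 2 genes were called, ITGA2 and ITGA6.

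**Figure D1:**
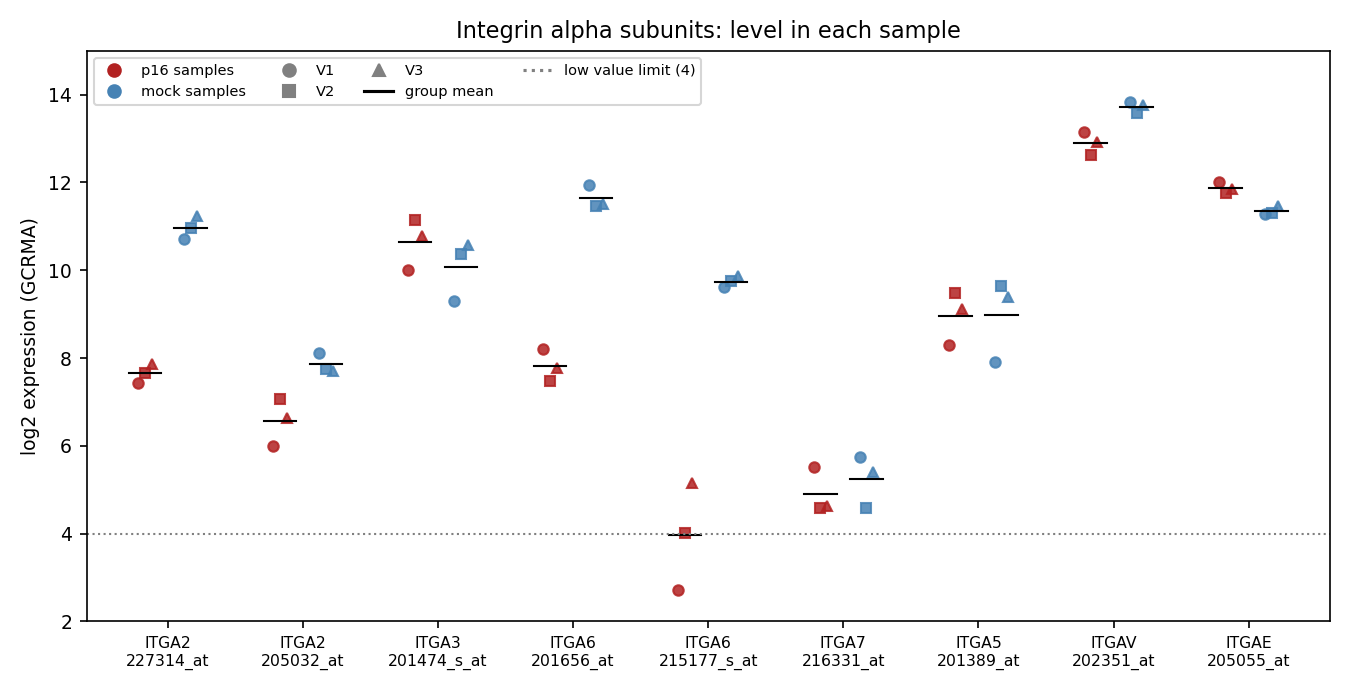
Log2 level (vertical axis) of each tested alpha subunit probe set in every sample, with p16 samples in red left of mock samples in blue, marker shapes for V1 to V3 and black bars for group means. The p16 samples lie below all mock samples for both ITGA2 and both ITGA6 probe sets and for ITGAV, above them for ITGAE, and among them for ITGA3, ITGA5 and ITGA7.

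ITGA6, the alpha6 subunit of the laminin receptors alpha6beta1 and alpha6beta4, had the largest fall. Its brightest probe set, 201656_at, read 8.20, 7.47 and 7.77 in p16 samples V1, V2 and V3, against 11.94, 11.47 and 11.50 in mock samples. All 3 p16 samples lay more than 3 units below all 3 mock samples. The log2 difference was -3.82 (SE 0.26, 95% confidence interval -4.45 to -3.19), a level 14.1-fold lower in p16 samples (limma adjusted p = 0.000178). Taken by V number, the differences were -3.74, -3.99 and -3.73. The other probe set, 215177_s_at, read 2.72, 4.004 and 5.16 in p16 samples and 9.62, 9.75 and 9.86 in mock samples. It was tight among mock samples and wide among p16 samples, the V1 sample of which lay under 4, so its fold is a bound, at least 40.9-fold lower in p16 samples (adjusted p = 0.0010). The SD on this probe set was 1.22 in p16 samples and 0.12 in mock samples. Both probe sets were called in all the alternatives in which they were tested.

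ITGA2, the alpha2 subunit of the collagen receptor alpha2beta1, fell on both of its probe sets. On 227314_at it read 7.43, 7.66 and 7.86 in p16 samples, against 10.72, 10.96 and 11.23 in mock samples. The groups were separated by nearly 3 units. The difference was -3.32 (SE 0.21, interval -3.84 to -2.80), 9.98-fold lower in p16 samples (adjusted p = 0.000143), with -3.29, -3.30 and -3.37 by V number. On 205032_at it read 5.99, 7.06 and 6.64 in p16 samples and 8.10, 7.76 and 7.70 in mock samples. The groups did not overlap here either, but the difference was smaller, -1.29 (SE 0.31, interval -2.06 to -0.52; adjusted p = 0.0222). The intervals of the 2 probe sets do not meet, so the array does not settle the size of the ITGA2 change. The estimates were 2.44-fold and 9.98-fold, depending on the probe set, and they are not limits, as the intervals reach beyond both. With V2 and V3 only, the difference on 205032_at was -0.88. The call on 205032_at ended without mock V1 (adjusted p = 0.0566), mock V2 (0.0613), mock V3 (0.0587) or p16 V3 (0.0680), while that on 227314_at held in every alternative. With the V number as a block and all samples kept, the limma adjusted p of 205032_at was 0.0200.

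ITGAV, the alphaV subunit, which pairs with several beta subunits in receptors for vitronectin, fibronectin and latent TGF-beta, fell by less than 1 unit. It had 1 probe set, 202351_at, which read 13.16, 12.61 and 12.92 in p16 samples and 13.83, 13.57 and 13.76 in mock samples. Every p16 sample lay below every mock sample, with V2 lowest in each group. The difference was -0.83 (SE 0.20, interval -1.32 to -0.33), 1.77-fold lower in p16 samples (adjusted p = 0.0227). The call ended without mock V1 (adjusted p = 0.0527), mock V3 (0.0757), p16 V2 (0.0698) or p16 V3 (0.0749), all fitted without a block. With the V number as a block and all samples kept, the interval was -1.14 to -0.51 and the limma adjusted p 0.00430. With that block 63.5% of all tested probe sets were called.

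The promoters of the genes that fell, ITGA2, ITGA6 and ITGAV, are shown because these genes moved the same way. Sequences are from RefSeq, build GRCh38.p14, running 5′ to 3′ from 250 bases before to 50 after the annotated start. For ITGA6 and ITGAV, which have 2 listed starts, the more GC-rich is printed. Capitals mark matches, on either strand, to the GC box GGGCGG, which SP1 binds, the AP-1 site TGANTCA, and the E2F sites TTTGGCGC and TTTCGCGC.
ITGA2 promoter, chr5:52989102-52989401, + strand: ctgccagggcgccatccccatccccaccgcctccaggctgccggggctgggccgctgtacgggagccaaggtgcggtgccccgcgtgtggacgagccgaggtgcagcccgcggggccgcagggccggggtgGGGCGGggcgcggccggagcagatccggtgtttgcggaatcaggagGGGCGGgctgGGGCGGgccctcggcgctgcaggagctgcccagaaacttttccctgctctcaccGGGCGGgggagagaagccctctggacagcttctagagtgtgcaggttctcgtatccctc
ITGA6 promoter, chr2:172427336-172427635, + strand: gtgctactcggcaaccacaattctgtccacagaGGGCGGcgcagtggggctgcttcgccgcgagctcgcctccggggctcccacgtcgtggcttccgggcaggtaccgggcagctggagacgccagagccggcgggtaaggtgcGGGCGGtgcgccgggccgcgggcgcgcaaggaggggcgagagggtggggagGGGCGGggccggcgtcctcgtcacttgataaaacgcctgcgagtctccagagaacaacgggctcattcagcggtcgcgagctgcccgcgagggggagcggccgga
ITGAV promoter, chr2:186589806-186590105, + strand: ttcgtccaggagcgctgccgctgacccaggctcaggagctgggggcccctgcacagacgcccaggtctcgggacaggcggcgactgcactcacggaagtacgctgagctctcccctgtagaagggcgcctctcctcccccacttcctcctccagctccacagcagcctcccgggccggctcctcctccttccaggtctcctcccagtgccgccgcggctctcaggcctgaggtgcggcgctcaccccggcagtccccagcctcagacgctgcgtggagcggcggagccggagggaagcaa
The ITGA2 window held 4 GC boxes and the printed ITGA6 window 3, while the ITGAV window held none. Windows of the other listed starts held 1 GC box for ITGA6, within the stretch shared with the printed window, and none for ITGAV. Among 35116 promoters of the same length, 45.0% held a GC box, 7.71% an AP-1 site, and 0.652% and 0.515% the first and second E2F site. The printed windows of ITGA2, ITGA6 and ITGAV were 72.7%, 72% and 70.7% GC, against a median of 58.7% over all promoters. The 45.0% is therefore not a share among promoters of like GC content. Neither E2F site occurred in any window of the 8 members with a sequence (all but ITGA3 and ITGA7), and the AP-1 site occurred in that of ITGA5 alone, which also held 1 GC box. The windows of ITGA1, ITGA4, ITGA10 and ITGAE held no match. A match is a run of letters and not a bound site, and its absence says only that the letters are not in this window.

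ITGAE, which encodes the alphaE subunit that pairs with beta7 and binds E-cadherin, was the 1 member called higher. Its probe set 205055_at read 12.02, 11.76 and 11.85 in p16 samples and 11.29, 11.31 and 11.46 in mock samples. All p16 samples lay above all mock samples, by a narrow margin, and its pooled SD of 0.11 was smaller than that of 93% of tested probe sets. The difference was 0.52 (SE 0.16, interval 0.13 to 0.91), 1.44-fold higher (adjusted p = 0.0466). The call ended when any of the 6 samples was left out, with adjusted p of 0.0838 to 0.123, and with quantile normalization (0.0742), and the direction held in every alternative. With the V number as a block and all samples kept, the limma adjusted p was 0.0216. ITGB7, its only known partner, read 4.78, 4.07 and 4.08 in p16 samples and 3.93, 4.06 and 4.04 in mock samples, near the limit of 4 in both groups (difference 0.30, adjusted p = 0.383). CDH1, its ligand E-cadherin, was 3.88-fold lower in p16 samples (adjusted p = 0.00497).

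ITGA3, the alpha3 subunit of the laminin receptor alpha3beta1, was called in 1 of the alternatives run, that with the V number as a block. Its probe set 201474_s_at read 9.9999, 11.13 and 10.77 in p16 samples and 9.29, 10.36 and 10.58 in mock samples. The groups overlapped, and V1 was the lowest sample of each. The difference was 0.56 (SE 0.45, interval -0.56 to 1.68; adjusted p = 0.392). By V number the p16 sample was higher in 3 of 3 pairs, by 0.71, 0.77 and 0.19, and with the number as a replicate block the interval was 0.12 to 0.99 and the adjusted p 0.0376, where 63.5% of all tested probe sets and 67.9% of genes were called with the block.

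ITGA5, the alpha5 subunit of the fibronectin receptor alpha5beta1, varied more between V numbers than between groups. It read 8.29, 9.48 and 9.11 in p16 samples and 7.90, 9.65 and 9.38 in mock samples on 201389_at. The V1 samples of both groups were the lowest, 1.00 below the mean of V2 and V3 in p16 samples and 1.62 below in mock samples, and the groups overlapped. The differences by V number were 0.39, -0.17 and -0.27, with 1 of 3 pairs higher in p16 samples. The group difference was -0.015 (interval -1.39 to 1.36; adjusted p = 0.987), and with the block the interval was -0.48 to 0.45. An ITGA5 change of more than 1.4 units in either direction thus lies outside the wider interval, while smaller ones could not be seen in it. FN1, the fibronectin that alpha5beta1 binds, rose 10.3-fold in p16 samples (13.92 ± 0.31 in p16 and 10.56 ± 0.22 in mock samples, SD, n = 3 each; adjusted p = 0.000193), and all 5 of its tested probe sets were called higher.

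ITGA7, the alpha7 laminin receptor subunit typical of muscle, lay close to the low value limit. Its tested probe set 216331_at read 5.52, 4.58 and 4.62 in p16 samples and 5.75, 4.58 and 5.41 in mock samples. The groups overlapped, and V1 was the highest sample of each. The difference was -0.34 (interval -1.35 to 0.67; adjusted p = 0.572), and it was called lower only with array weights (-0.64, adjusted p = 0.0324). Its second probe set lay under 4 in all samples.

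**Figure D2:**
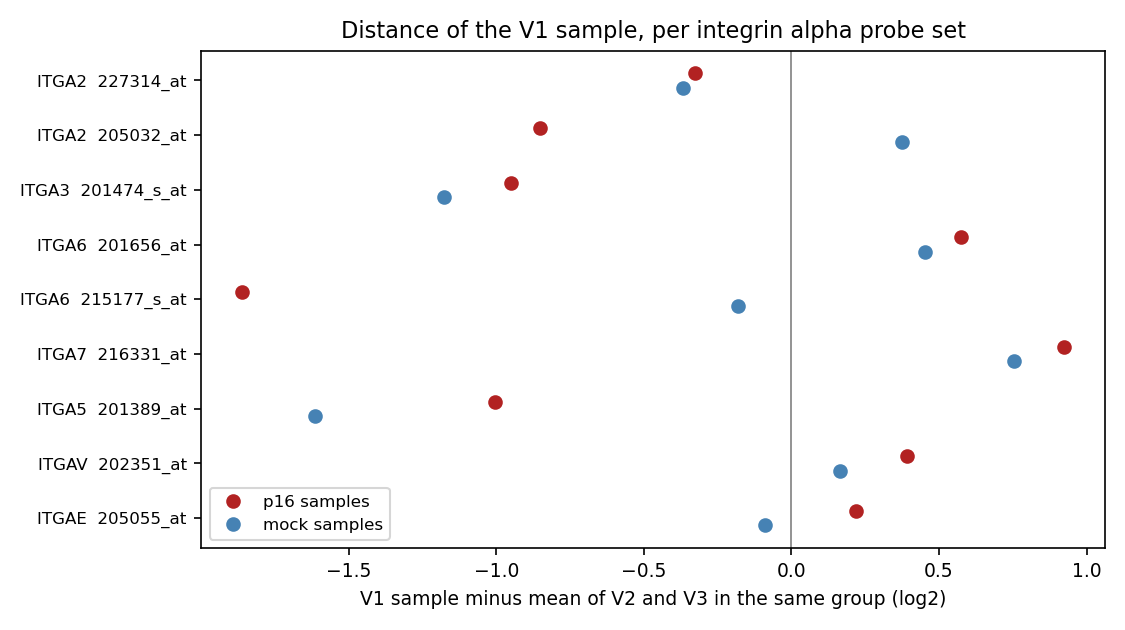
Log2 level of the V1 sample minus the mean of V2 and V3 of its own group (horizontal axis) for each tested alpha subunit probe set, with p16 samples in red above mock samples in blue. V1 lies to the same side in both groups for 7 of the 9 probe sets, below V2 and V3 for ITGA5 and ITGA3 and above them for ITGA7, and to opposite sides for ITGA2 205032_at and ITGAE.

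The V1 sample lay to the same side of the mean of V2 and V3 in both groups for 7 of the 9 probe sets. This counts the side alone, and on some of them V1 was close to the others, as in mock samples for ITGA6 on 215177_s_at (-0.18). The share over all tested probe sets was not counted, so the 7 are not read as a trait of these genes. The distance was -0.95 in p16 and -1.18 in mock samples for ITGA3, 0.92 and 0.75 in the same order for ITGA7, and 0.57 and 0.45 for ITGA6 on 201656_at. The V1 samples lay apart over the array as a whole, and what the number stands for is not in the labels. With V2 and V3 only, the 5 probe sets of ITGA2, ITGA6 and ITGAV were called lower and none was called higher, the adjusted p of ITGAE being 0.0552.

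ITGA1, ITGA4 and ITGA10 lay under 4 in every sample on all of their 8 probe sets. Their levels and those of the second ITGA7 probe set spanned 2.12 to 3.58. Differences between groups that far under the limit were not read, and no fold is given. ITGA1 encodes a collagen receptor subunit and is a neighbour of ITGA2 on chromosome 5. PELO is the 1 protein-coding gene whose start is listed between the starts of ITGA1 and ITGA2, and overlap of genes was not looked at. ITGA1 thus stayed at the floor in the same samples in which its neighbour ITGA2 was well above it. ITGA10 encodes a collagen receptor subunit of cartilage, and ITGA4 a subunit that binds VCAM1 and fibronectin and pairs with beta1 or beta7. The 8 other alpha subunits, from ITGA8 and ITGA9 to the leukocyte subunits ITGAL and ITGAM, had no probe set that passed the filter.

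Among beta subunits, 4 of 5 tested genes were lower in p16 samples and none was higher. Over the whole array 22.5% of genes were called lower and 19.5% higher, and whether the list departs from these shares was not tested. ITGB1, the common partner of alpha2, alpha3, alpha5 and alpha6, read 14.64 ± 0.28 in p16 and 15.32 ± 0.08 in mock samples on its brightest probe set (SD, n = 3 each; difference -0.67, adjusted p = 0.0423). Of its 3 tested probe sets 2 were called lower, the dimmer of them by 2.89-fold (difference -1.53, adjusted p = 0.0340), and the third was called with the block alone (-1.29; adjusted p = 0.0764 without it and 0.0133 with it). ITGB4, which pairs with alpha6 alone and anchors hemidesmosomes, read 6.84, 7.45 and 6.93 in p16 samples and 8.16, 9.70 and 9.19 in mock samples. The ITGB4 groups did not overlap, and the level was 3.86-fold lower in p16 samples (adjusted p = 0.0166) on 1 of its 2 tested probe sets, the other being called with the block alone (-1.23; adjusted p = 0.458 without it and 0.0379 with it). ITGB8, a partner of alphaV, was 5.17-fold lower on its 1 tested probe set (adjusted p = 0.00915). ITGB5, also a partner of alphaV, was lower on 3 of 4 tested probe sets, by 2.35-fold on the brightest (adjusted p = 0.0478), at least 9.93-fold on a second (difference -3.41, adjusted p = 0.00147) and 1.88-fold on another (-0.91, adjusted p = 0.00751). The size of the ITGB5 change thus depended on the probe set. The calls of ITGB1 and ITGB5 on their brightest probe sets ended when any sample but p16 V1 was left out, with adjusted p up to 0.138 and 0.140, that of ITGB1 also with quantile normalization (0.115), and that of ITGB4 without mock V3 (0.0633) or p16 V3 (0.0631). With the V number as a block and all samples kept, the limma adjusted p on the brightest probe set was 0.0113 for ITGB1, 0.00250 for ITGB4 and 0.00163 for ITGB5. ITGB3 lay under 4 in all samples on all probe sets, ITGB2 reached 4 in mock V3 alone, and ITGB6 had no probe set of its own.

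**Figure D3:**
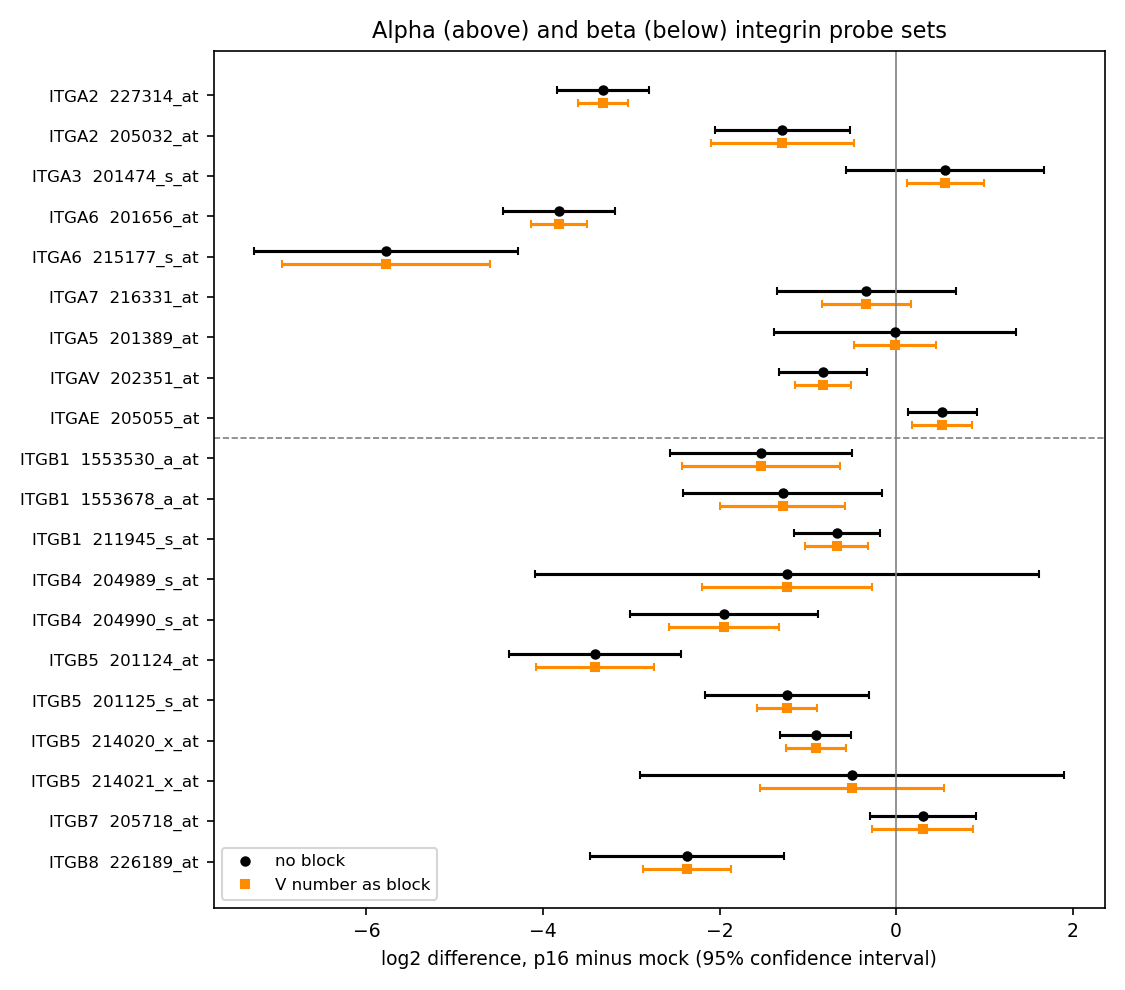
Log2 difference of p16 minus mock samples (horizontal axis) with its 95% confidence interval for the 9 alpha subunit probe sets above the dashed line and the 11 tested beta subunit probe sets below it, without a block (black circles) and with the V number as a block (orange squares). The largest falls among alpha subunits are in ITGA6 and ITGA2. Without the block, 7 of 11 beta subunit probe sets were called lower, beside 19.7% of all tested probe sets.

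Set by their usual pairs, both subunits of alpha6beta4 (ITGA6 -3.82, ITGB4 -1.95) and of alpha2beta1 (ITGA2 -3.32, ITGB1 -0.67) were lower in p16 samples on their brightest probe sets. Both subunits of alphaVbeta5 (ITGAV -0.83, ITGB5 -1.23) and of alphaVbeta8 (ITGB8 -2.37) were lower too. In alpha5beta1 and alpha3beta1 the beta subunit was called lower and the alpha subunit was not called. On other probe sets called lower the difference was -1.53 for ITGB1, -3.41 and -0.91 for ITGB5 and -1.29 for ITGA2. The difference of each subunit is its own on the log2 scale, and levels of different probe sets were not compared.

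The ligands went in both directions. In this and the other gene lists, every call made without the V number as a block was also made with it, and the block added calls, as it did over all genes (67.9% called with it, 42% without). Of 7 laminin chains tested, 2 were higher and 1 was lower, with a median difference of 0.34, and with the block 3 were higher and 3 lower. LAMA5, the alpha chain of laminins that alpha3 and alpha6 integrins bind, was 20.4-fold lower in p16 samples (adjusted p = 0.000567), while LAMB3, a chain of laminin-332, was 16.3-fold higher (adjusted p = 0.000188) and LAMA1 at least 2.21-fold higher. Of 7 collagens, 3 were higher and none was lower, with a median of 1.29, and with the block 4 were higher and none was lower. The basement membrane collagens COL4A2 and COL4A1 were 367-fold and at least 142-fold higher and COL6A2 at least 27.0-fold. On their second probe sets these genes were at least 32.9-fold, 37.4-fold and 1.83-fold higher. COL4A2 read 4.14, 4.14 and 4.55 in mock samples on the first probe set. These values lie near the limit of 4, so the 367-fold is uncertain too. Of 11 RGD and other matrix ligands, 4 were higher and 2 lower, with a median of 0.21, and 4 were lower with the block. EDIL3, an RGD protein that alphaV integrins bind, was at least 74.9-fold higher, LTBP1, which tethers latent TGF-beta to the matrix, 9.84-fold higher (adjusted p = 0.0146, not called without mock V2 or mock V3, nor on its second probe set), and TNC at least 3.26-fold lower. LUM, a matrix gene on the list of fibroblast markers, was at least 30.4-fold higher. LUM alone was called of the 3 genes tested on that list. COL1A1 (a log2 difference of -0.13, limma adjusted p = 0.748) and THY1 (0.03, adjusted p = 0.881) were not called. The list of 8, LUM included, had a summed linear level of 622 to 974 in p16 and 268 to 392 in mock samples. LUM itself went from a mean log2 level of 2.72 in mock to 8.92 in p16 samples, so the sums do not show a rise of the other markers. COL1A2, COL3A1, DCN and PDGFRA lay under 4 in every sample.

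Among cell-cell ligands, 2 of 6 were higher and 2 lower, with a median of -0.67. L1CAM, which alpha5beta1 and alphaVbeta3 can bind, was at least 4.36-fold higher in p16 samples (adjusted p = 0.00345), and JAM2, an alpha4beta1 ligand, at least 1.38-fold, a call that ended with low values raised to 4 (adjusted p = 0.277). ICAM2 was 5.03-fold lower, on 1 of its 2 tested probe sets, beside the fall of CDH1. Endothelial markers lay under 4 in every sample for 7 of 7 genes, and so did leukocyte markers for 7 of 8, ITGB2 being the exception.

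Of 22 activators and adaptors tested, which link integrin tails to actin or switch integrins on, 4 were higher and 6 lower, with a median of 0.17. With the block 7 were higher and 8 lower. Over all genes 42% were called without the block and 67.9% with it. TNS4 and TNS2, tensins that bind beta subunit tails, were 96.3-fold lower and at least 20.4-fold lower in p16 samples (adjusted p = 0.00297 and 0.000871), TNS4 on its second probe set by at least 13.5-fold, and vinculin, VCL, was 4.57-fold lower (adjusted p = 0.00612). The kindlin FERMT2 was 3.63-fold higher (adjusted p = 0.0280, with 2 of 3 probe sets called), a call that held without mock V1 and ended without each of the other samples. Of 4 inactivators 1 was higher and 1 lower, and with the block 2 and 2. DOK1 was 3.07-fold lower (at least 5.13-fold on its other probe set) and ITGB1BP1, which competes with talin on the beta1 tail, 1.84-fold higher (adjusted p = 0.0200, on 1 of 2 probe sets, and not called without mock V2, mock V3 or p16 V3).

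Lateral partners, membrane proteins that bind integrins side by side, were 3 higher and 3 lower of 12 tested, with a median of -0.15. With the block 4 were higher and 6 lower. The shares of all genes called, for these and the trafficking genes below, were 42% without the block and 67.9% with it. The tetraspanin CD81 was 233-fold higher in p16 samples (adjusted p = 5.0e-05), caveolin CAV1 3.996-fold and SLC3A2 2.65-fold (not called without mock V2, mock V3, p16 V1 or p16 V2), and the tetraspanin CD82 was 1.95-fold lower. CD151, the tetraspanin that binds alpha3 and alpha6 most tightly, was not called (0.66, adjusted p = 0.109) but was called higher with the block (adjusted p = 0.0257). Of 13 genes that move integrins through endosomes, 4 were higher and 2 lower, with a median of 0.13, and 4 and 5 with the block. RAB4A, of the fast recycling route, was 60.1-fold lower (adjusted p = 4.7e-05) and RAB11FIP1 3.79-fold lower (1.48-fold on another called probe set). RAB25, which recycles alpha5beta1, was at least 11.98-fold higher (adjusted p = 1.9e-05) and GGA3 3.62-fold higher (not called without mock V3 or p16 V2). RAB25 lay under 4 in every mock sample, so the p16 samples alone took it through the filter. Of 4 hemidesmosome genes ITGB4 alone was called without the block, and PLEC (0.74, adjusted p = 0.231), DST (0.56, adjusted p = 0.0728) and CD151 were not. With the block all 3 of these were called higher, PLEC with adjusted p = 0.0208 and DST with 0.0101, and each was higher in p16 samples in 3 of 3 pairs by V number.

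**Figure D4:**
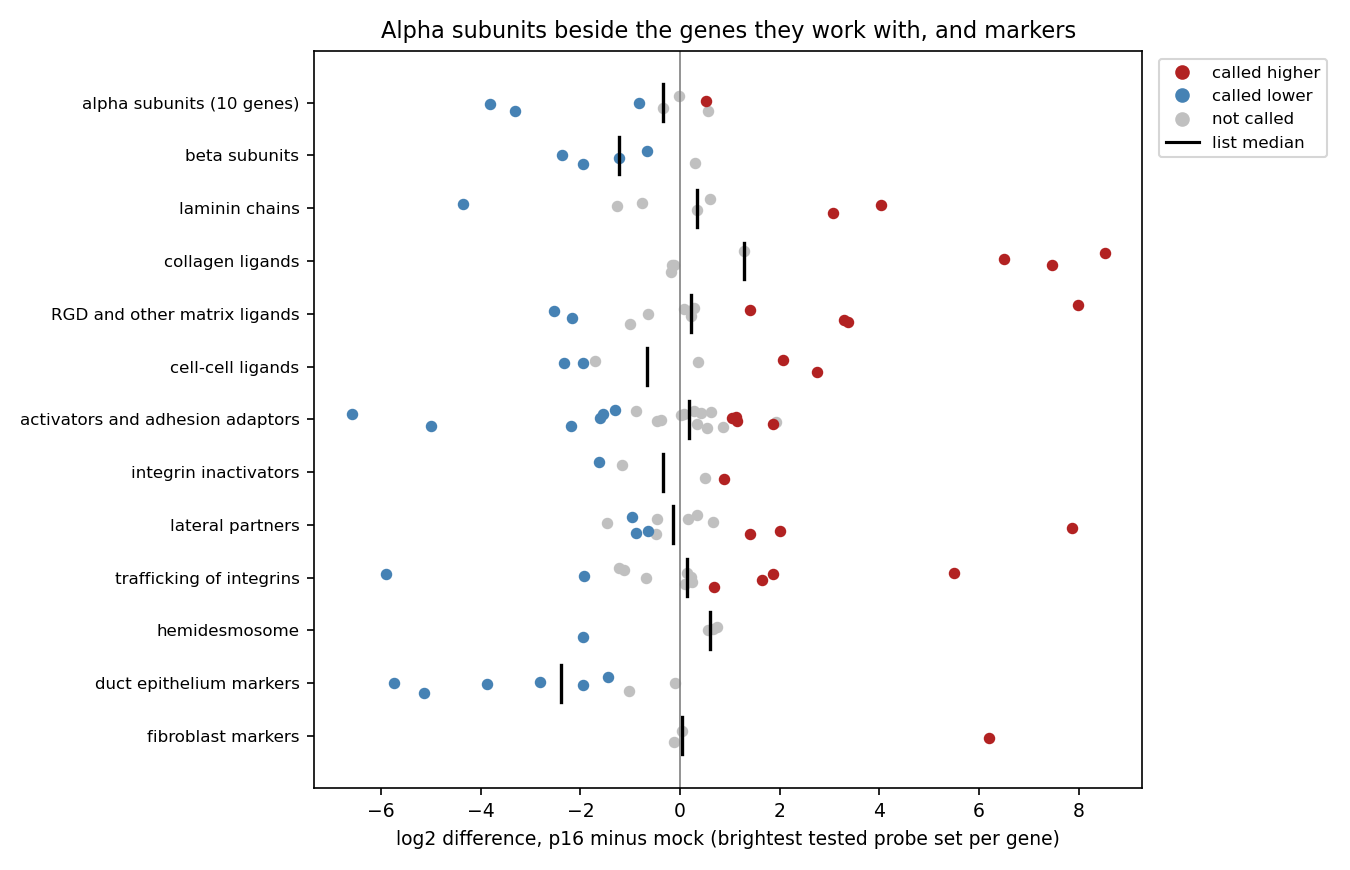
Log2 difference of p16 minus mock samples (horizontal axis) for the brightest tested probe set of each gene, by list (rows), with genes called higher in red, called lower in blue, not called in grey, all without the block, and a black bar at each list's median. The alpha and beta subunits spread mostly to the lower side, with medians of -0.34 and -1.23, while collagens reach 8.52 on the higher side. The median over all genes tested was -0.032.

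**Figure D5:**
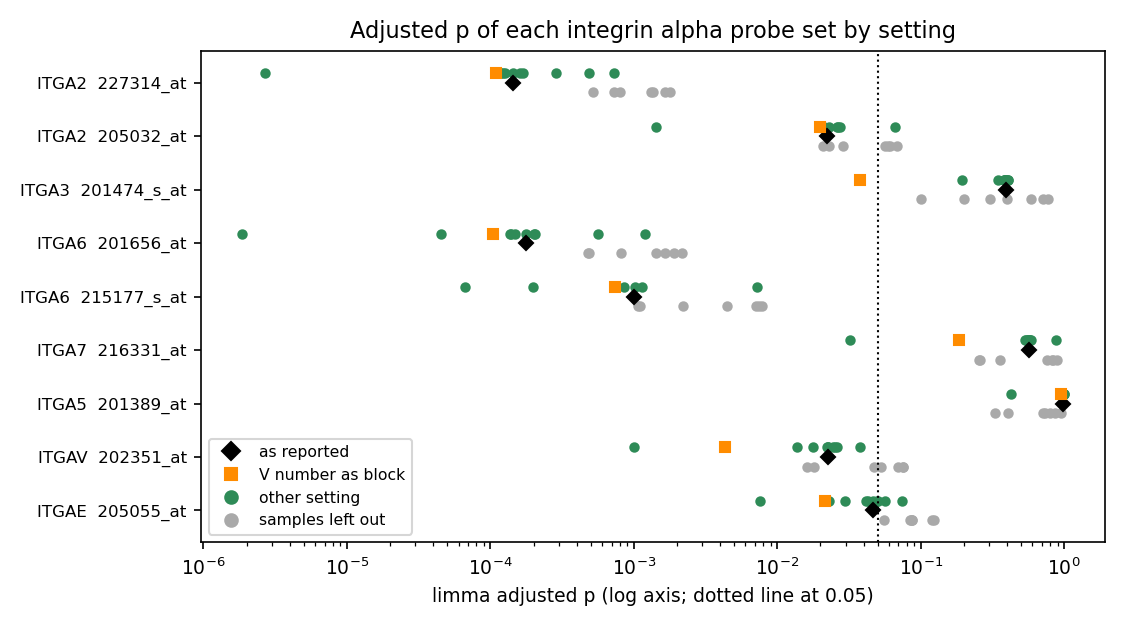
Limma adjusted p on a log axis for each tested alpha subunit probe set as reported (black diamonds), with the V number as a block (orange squares), under the other settings (green) and with samples left out (grey). ITGA6 and ITGA2 227314_at lie left of 0.05 under all settings run, ITGA5 lies right of it under all, and the remaining probe sets cross it.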

How the data were processed

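Total RNA (300 ng, per the labels' protocols) of 6 Capan-1 samples was labelled with biotin and hybridised to Affymetrix arrays. The deposited values are log2 expression levels, which the authors normalized with GCRMA, per the submitters' processing notes; its version is not given in the sources used here. GCRMA corrects background from probe sequence, so unexpressed probe sets gather at a floor under about 4. Folds against it are bounds, computed with values under 4 raised to 4. On their brightest probe sets, LAMA1, COL6A2, EDIL3, JAM2, L1CAM, LUM, RAB25 and MTAP lay under 4 in every mock sample, and TNS2 and TNC in every p16 sample. They passed the filter through the other group alone, and the spread of the group at the floor is that of background. Their calls and adjusted p share this limit. With values under 4 raised to 4, the calls of all of them but JAM2 held. The platform annotation gave 1 gene for 41091 probe sets after 62 control probe sets were left out; 1801 with several genes were used for none.

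The p16 and mock samples were compared with the moderated two-sided test of limma 3.58.1 (R 4.3.3; lmFit, eBayes) and no block, with Benjamini-Hochberg adjustment over the 24406 probe sets tested. A gene's value is that of its brightest tested probe set. The test was checked on simulated data drawn independently for each sample. No shift shared by V number was simulated, so the check does not cover such shifts. Samples sharing a V number shifted alike around the means of their groups (correlations across probe sets of 0.81, 0.75 and 0.67). The V numbers were therefore taken to pair the samples in a second fit, with the V number as a block. Calls, intervals and results with samples left out are from the fit without it unless the block is named. V2 and V3 also deviated together across groups (0.51 and 0.42). The members, the 15 gene lists and the tests were chosen with earlier results of these data known. The text names all members and beta subunits, and CDKN2A, GAPDH and ACTB. Of each list it names up to 4 called genes with the largest change or, without a call, the 2 nearest to one. KRT7, KRT18, EPCAM, COL1A1, THY1, CD151, PLEC, DST and MTAP were added after their values were seen. GAPDH and ACTB were not called (adjusted p = 0.605 and 0.477). Alternatives changed the filter, scaling, variance model, probe set rule, block and samples. Python 3.11.15 with numpy 2.4.6, pandas 2.3.3 and matplotlib 3.10.9 served for tables and figures.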

Additional observations from a re-analysis of the deposited data

How the results depend on the processing

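Over all probe sets, 9086 were called, against 15502 with a replicate block for the V numbers and 16004 with array weights. With the replicate block 7 member probe sets and 5 member genes were called, against 6 and 4 without it; the gain was ITGA3, and the block changed no other member's call. Among the listed genes it ended no call and added those given with the lists. Leaving out 1 sample at a time, 3 to 5 member probe sets and 2 to 3 member genes were called, and 6418 to 9122 probe sets over the array. With 1 sample left out the remaining pair of its group is assumed to vary like the other group. Without a filter 5 member probe sets were called of 18 tested, the loss being ITGA2 205032_at (adjusted p = 0.0664). The brightest probe sets of ITGB1, ITGB4 and ITGB5 (0.0618, 0.0614 and 0.112), LTBP1, FERMT2, SLC3A2 and GGA3 also lost their calls without a filter, and ITGB4 with the mean of its probe sets (0.134). The ITGAE call also ended with a filter at 5 (adjusted p = 0.0563) and with median centring (0.050). ITGA5 turned sign with quantile normalization (0.0085) and with samples left out (-0.55 to 0.32), never near the threshold (lowest adjusted p 0.331). Of 898 values recomputed for single genes and probe sets, 833 kept direction and side of the threshold, 58 lost a call, 3 gained one and 4 turned sign, all 4 in ITGA5. Part of the 833 could not have come out otherwise. Taking the probe set with the lowest adjusted p repeats the main fit where that is the brightest or only tested one. With 1 tested probe set, the mean of probe sets also leaves the difference as it was. Signal near the floor limits ITGA7 and 215177_s_at of ITGA6.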
